A study of Mus musculus with 14 samples.

Results

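Epithelial to mesenchymal transition (EMT) is the programme by which epithelial cells loosen their junctions, reorganise their cytoskeleton and gain motility. A small set of transcription factors drives it, among them the Snail, Twist and ZEB families, which bind E-box motifs and repress epithelial genes such as E-cadherin. In the mammary gland, SNAI2 is also a normal factor of basal and stem-like epithelium, and vimentin is made by mesenchymal cells, by basal epithelium and by tumour cells that have gone through the transition. The 4 genes of this programme described here in mammary tumours are the transcription factor genes Twist1 and Snai2, the intermediate filament gene Vim, and the integrin subunit gene Itgb3. With the direction inferred as described below, offspring of mothers fed genistein had lower Twist1, Vim and Itgb3 RNA and higher Snai2 RNA than controls. The 4 genes were selected on the RNA fold changes and adjusted p-values of the same comparison. These values are therefore a description and carry no test. They are 4 of 1324 listed genes, and Twist1 and Itgb3 are flanked by 7 of the 4327 CpG sites that the authors listed as differently methylated. No listed region (0 of 139) is annotated to them, and 5 of the authors' 589 pairs of a called gene with a nearby site concern them.

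Maternal genistein tumours came from offspring whose mothers were fed genistein (an estrogen receptor ligand from soy) at 250 mg/kg of diet from 4 weeks of age until weaning (Maternal LT-GE in the labels). Control tumours came from offspring of mothers on control diet. Offspring of both groups ate control diet throughout, were FVB mice of about 25 weeks carrying the SV40 Tag transgene, and gave mammary tumours, so the viral T antigen is common to both groups. The promoter that drives the transgene is not given in the sources used here. RNA-seq and reduced representation bisulfite sequencing (RRBS, a survey of CpG-rich restriction fragments) each used 4 maternal genistein and 3 control libraries. Nothing in the labels says whether libraries came from separate litters, so any p-value measures only the spread between these samples.

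RNA values per library were not analysed here. The authors' table gives a DESeq log2 fold change over all libraries of a group, and its header does not say which group is the numerator. A positive fold change is taken to mean more RNA in maternal genistein tumours, because chromosomes with a larger share of positive genes had relatively more RRBS reads in maternal genistein than in control libraries (Pearson's r = 0.906 and Spearman's rho = 0.929 over 20 chromosomes, as a description). This reading assumes that RNA follows DNA dosage. The opposite reading would turn the sign of every RNA statement above and below. At the listed CpG sites the maternal genistein libraries held 113967 to 210974 reads and the control libraries 203672 to 226194. Epithelial RNA was present: the authors' deposited table lists the keratin gene Krt18 at 23160 normalised counts on average.

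The promoter sequences of Vim and Twist1 are shown first because both genes were lower and the table used held no promoter for Snai2 and Itgb3. Each line gives the 250 bases before the transcription start on the plus strand of GRCm38.p6, from RefSeq, at chr2:13574061-13574310 for Vim and chr12:33957421-33957670 for Twist1. Capitals mark matches to TATAAA, and to GGGCGG on either strand.
Vim: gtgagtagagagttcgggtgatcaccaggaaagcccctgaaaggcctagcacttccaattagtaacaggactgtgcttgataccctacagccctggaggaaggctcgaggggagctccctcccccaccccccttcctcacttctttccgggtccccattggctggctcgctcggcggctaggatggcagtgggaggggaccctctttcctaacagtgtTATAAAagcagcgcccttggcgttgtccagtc
Twist1: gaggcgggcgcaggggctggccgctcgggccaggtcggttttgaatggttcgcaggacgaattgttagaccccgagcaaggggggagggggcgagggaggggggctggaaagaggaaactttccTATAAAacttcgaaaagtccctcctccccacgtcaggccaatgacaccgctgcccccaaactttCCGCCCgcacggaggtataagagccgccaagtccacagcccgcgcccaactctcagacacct

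The TATAAA match spans positions -32 to -27 from the start of Vim and -126 to -121 from the start of Twist1. Over 32851 mouse promoters of the same length, 12.4% hold TATAAA and 32.7% hold GGGCGG on either strand. The GGGCGG match, which reads CCGCCC on the printed strand, is in the Twist1 window only. Neither window holds the E-box CAGGTG (in 17.2% of promoters), any E-box of the form CANNTG (66.2%, which includes CAGGTG) or the AP-1 motif TGANTCA (6.75%), on either strand. The Vim window has 8 CpGs and a GC content of 58.4%, and the Twist1 window has 18 CpGs and 62.4%, against medians of 6 CpGs and 52.4% over all promoters. Promoters were matched for these 2 of the 4 members. None of the listed CpG sites lies in either window.

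Twist1, a basic helix-loop-helix factor that drives tumour cell invasion, was lower in maternal genistein tumours. The gene (ENSMUSG00000035799) lies at chromosome 12, 33957671 to 33959831, on GRCm38. The authors' deposited table gave it a log2 fold change of -2.54 (SE 0.57, DESeq adjusted p = 0.000432) at a mean normalised count of 496, which is 5.80-fold lower on the linear scale. Snai2 (also called Slug), a zinc finger repressor, went the other way (ENSMUSG00000022676, chromosome 16, 14705852 to 14709395). For it the authors' deposited table gives a log2 fold change of 2.07 (SE 0.48, DESeq adjusted p = 0.00074) at a mean normalised count of 191, or 4.20-fold higher. These EMT factors thus had opposite signs in the same comparison.

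Vim, which encodes the filament protein vimentin (ENSMUSG00000026728, chromosome 2, 13574311 to 13582826), had a log2 fold change of -1.71 (SE 0.24, DESeq adjusted p = 9.55e-10) and 15469 normalised counts on average in the authors' deposited table. It ranked number 56 of the 1324 listed genes by p-value, although its fold was number 222 among the 556 lower genes. Itgb3 encodes integrin beta 3, which pairs with the alpha v subunit on invasive and endothelial cells and with alpha IIb on platelets (ENSMUSG00000020689, chromosome 11, 104608000 to 104670476). It had a log2 fold change of -1.70 (SE 0.44, DESeq adjusted p = 0.00314) and 1300 normalised counts on average in the authors' deposited table. Vim and Itgb3 thus had nearly the same fold, 3.27-fold and 3.26-fold lower, with a larger standard error for Itgb3. By edgeR, all 4 were under 0.05 (false discovery rate) in the authors' deposited table, Snai2 with the highest at 0.0153. All 4 also had a DESeq adjusted p under 0.01. Of all listed genes 70.5% passed the edgeR threshold and 52.7% the stricter DESeq threshold.

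Around these genes, 6 lists of EMT-related genes were counted, with 161 genes in all. The authors' deposited table calls 30 of these, with 15 higher and 15 lower. From the ratio of adjusted to raw p-values the authors tested 18425 genes, of which 7.19% are listed (4.17% higher and 3.02% lower), and 8.26% would pass by the implied rank of the last listed gene. Among listed genes 58% were higher and 42% lower. Called here means listed. The list holds 1324 genes where 1521 are implied under the threshold, so a gene that is not listed may still have passed. Without the members the lists held 157 genes, of which 26 were called, 14 higher and 12 lower. Their median log2 fold change was 0.78, against 0.89 over all listed genes. The lists were put together with earlier results of these data known, so the counts describe and do not test.

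**Figure D1:**
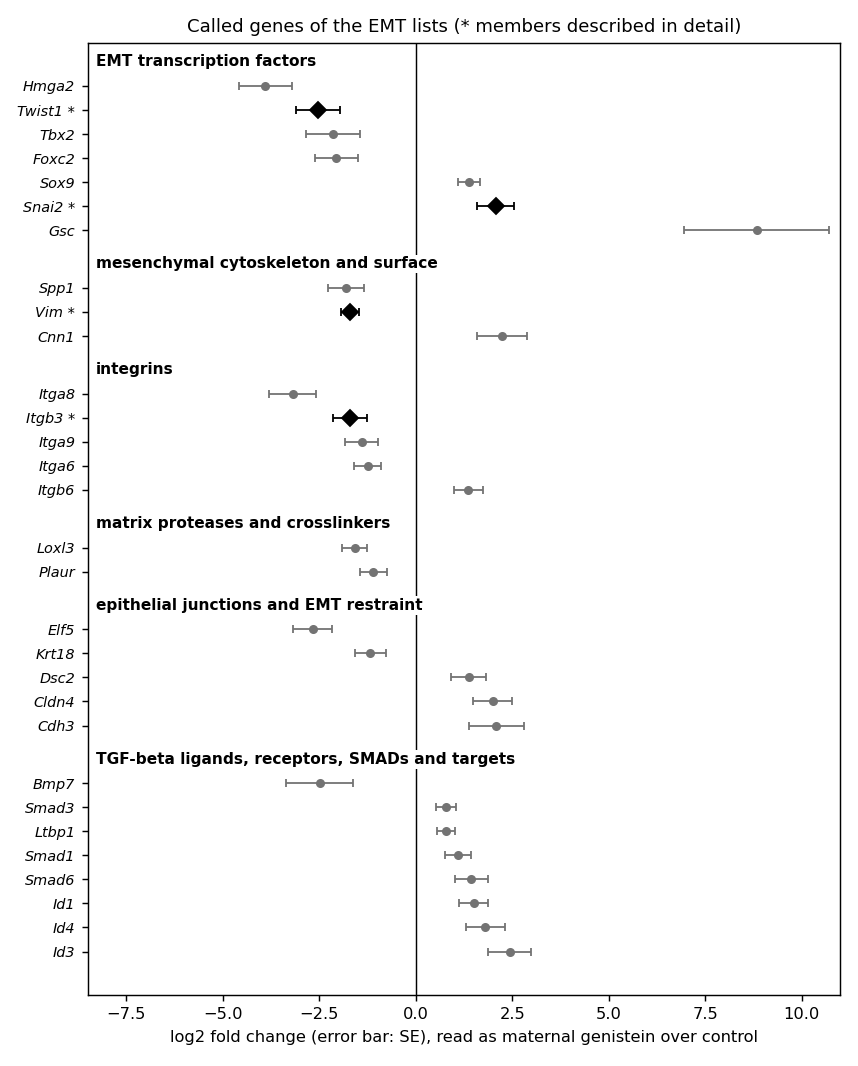
Log2 fold change in RNA (x axis, read as maternal genistein over control, error bars SE) of the 30 called genes of the 6 EMT lists, from the authors' deposited table. Diamonds mark Twist1, Snai2, Vim and Itgb3. Snai2 is right of 0 at 2.07 while Twist1, Vim and Itgb3 are left of it, and 7 of 8 called genes of the TGF-beta list are right of 0, of which 2 have a DESeq adjusted p under 0.01.

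Of 21 EMT transcription factors 7 were called, 3 higher and 4 lower. Higher in the authors' deposited table, besides Snai2, were Sox9, a factor of mammary progenitors, with a log2 fold change of 1.38 (SE 0.28), and the homeobox gene Gsc, at 8.82 (SE 1.87) with a mean normalised count of 73.9. The lower genes beside Twist1 were Hmga2, an architectural chromatin protein active in embryos and tumours, at -3.90 (SE 0.70), Foxc2 at -2.06 (SE 0.55) and the T-box repressor gene Tbx2 at -2.14 (SE 0.69) in the authors' deposited table. Foxc2, a forkhead factor, and Tbx2 passed edgeR less clearly in the authors' deposited table, at 0.0268 and 0.0389. Snai1, Zeb1, Zeb2 and Twist2, the closest relatives in function, are not among the listed genes, which does not show that they missed the threshold.

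Of 19 mesenchymal cytoskeleton and surface genes 3 were called, 1 higher and 2 lower. Spp1, which encodes osteopontin, a matrix ligand of the alpha v beta 3 integrin, had a log2 fold change of -1.81 (SE 0.46) in the authors' deposited table and was lower like Vim. Cnn1, encoding calponin of contractile cells, was higher at 2.24 (SE 0.65) in the authors' deposited table. Cdh2 and Fn1, which encode N-cadherin and fibronectin, were not among the listed genes.

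Integrin genes gave 5 calls of 25, 1 higher and 4 lower, with a median log2 fold change of -1.40. In the authors' deposited table the lower genes beside Itgb3 were Itga8 at -3.19 (SE 0.61), Itga9 at -1.40 (SE 0.42) and the laminin receptor subunit Itga6 at -1.25 (SE 0.36). Itgb6, the epithelial beta subunit that activates latent TGF-beta, was higher at 1.35 (SE 0.37), per the authors' deposited table. The partners of integrin beta 3, Itgav and Itga2b, were not among the listed genes. Of 25 matrix protease and crosslinker genes 2 were called (8%), near the 7.19% of all genes tested. Both were lower: the lysyl oxidase gene Loxl3 at -1.59 (SE 0.33) and the urokinase receptor gene Plaur at -1.10 (SE 0.35) in the authors' deposited table.

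Of 34 genes of epithelial junctions and of EMT restraint 5 were called, 3 higher and 2 lower. Cldn4, a tight junction claudin gene, was at 1.99 (SE 0.50), the desmosomal cadherin gene Dsc2 at 1.37 (SE 0.46) and the basal P-cadherin gene Cdh3 at 2.09 (SE 0.71) in the authors' deposited table. By edgeR, Cdh3 missed 0.05 in the authors' deposited table, at 0.0737. Elf5, a factor of alveolar cells that represses Snai2 in the mouse mammary gland, was lower at -2.68 (SE 0.50) in the authors' deposited table, and so was Krt18 at -1.18 (SE 0.40). Cdh1, which encodes E-cadherin and is the classical target of the Snail and Twist families, was not listed.

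The list of TGF-beta and BMP ligands, receptors, SMADs and targets gave 8 calls of 37, 7 higher and 1 lower. Their median log2 fold change was 1.27. By edgeR 5 were higher and 1 lower, and at a DESeq adjusted p under 0.01 2 were higher and 0 lower. Id1, Id3 and Id4, whose products bind E proteins and keep them from pairing with factors such as TWIST1, were at 1.49 (SE 0.38), 2.42 (SE 0.55) and 1.80 (SE 0.51), per the authors' deposited table. The signal transducer genes Smad1 and Smad3 were at 1.10 (SE 0.34) and 0.78 (SE 0.26), per the authors' deposited table. The inhibitor gene Smad6 was at 1.44 (SE 0.42) and Ltbp1, which encodes a binding protein of latent TGF-beta, at 0.78 (SE 0.23), per the authors' deposited table. The ligand gene Bmp7 was the lower one, at -2.49 (SE 0.86) in the authors' deposited table. By edgeR, Smad3 and Ltbp1 missed 0.05 in the authors' deposited table, at 0.0672 and 0.069. None of the genes of the TGF-beta ligands or receptors themselves was listed.

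Fewer cells of a type and less RNA per cell cannot be told apart in these bulk tumours. Vim and Itgb3 are also made by stromal cells. Of the marker lists, 0 of 10 fibroblast, 0 of 6 pericyte and smooth muscle, 0 of 10 macrophage and 0 of 6 platelet genes were called. With 7.19% of all genes tested listed, lists this short can hold 0 called genes by chance, so these counts do not show unchanged stroma. Of 10 endothelial genes Flt1 alone was called, at 1.56 (SE 0.49) in the authors' deposited table, and of 7 T cell genes Trbc2 alone, at 4.08 (SE 0.54) in the same table. Snai2 and Cdh3 belong to basal epithelium. There, 8 of 14 markers were called, 6 higher and 2 lower, with Trp63 at 4.73 (SE 0.71), Krt5 at 4.49 (SE 0.78) and Sox10 at -2.89 (SE 0.75) in the authors' deposited table. Of 13 luminal markers 6 were called, 2 higher and 4 lower. The called share was 57.1% of basal and 46.2% of luminal markers, against 7.19% of all genes tested. Summed marker levels per library were not analysed here, and the part of cell composition in the fold changes of the members was not tested.

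Listed CpG sites within 10 kb of a member occurred at Twist1 and Itgb3. Those at Twist1 were 3 CpGs within 24 bases (chromosome 12, 33967728 to 33967751, mm10) in the intergenic stretch after the gene, 7.90 to 7.92 kb past its end. All 3 were lower in maternal genistein tumours, and since they share nearly the same reads they are 1 observation rather than 3. The mean over the 3 CpGs was 62.2%, 0%, 36.0% and 3.51% in maternal genistein replicates 1 to 4, against 57.4%, 60.4% and 51.5% in control replicates 1 to 3. Control tumours lay close together at 56.4% ± 4.53 (SD, n = 3), while the maternal genistein tumours averaged 25.4% ± 29.4 (SD, n = 4). Replicate 1 of the maternal genistein group had the highest level of all 7 libraries and the other 3 were below every control.

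At the first of these CpGs, position 33967728, the groups did not overlap. It was at 26.7%, 0%, 25.0% and 0% in maternal genistein replicates 1 to 4, against 30.6%, 43.8% and 39.4% in control replicates 1 to 3. The gap between the nearest libraries, 26.7% of 15 reads (exact 95% interval 7.79 to 55.1) and 30.6% of 36 reads (16.3 to 48.1), was within counting error. Replicates 2 and 4, with 0 of 31 and 0 of 19 reads, allow a share of up to 9.68% and 15.8% by 3 counts of the total, and of up to 11.2% and 17.6% by the exact 95% interval. At position 33967751 the difference was larger, -44.3 points by library means. There the maternal genistein replicates 1 to 4 had 80%, 0%, 26.7% and 10.5%, against 94.4%, 68.8% and 57.6% in control replicates 1 to 3, and the groups overlapped. At position 33967747 they overlapped too, with a difference of -23.8 points that was -12.4 without maternal genistein replicate 2 or without replicate 4. Coverage of these CpGs was 15 to 36 reads. Intervals and limits cover counting error only, since PCR reads are not independent molecules.

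**Figure D2:**
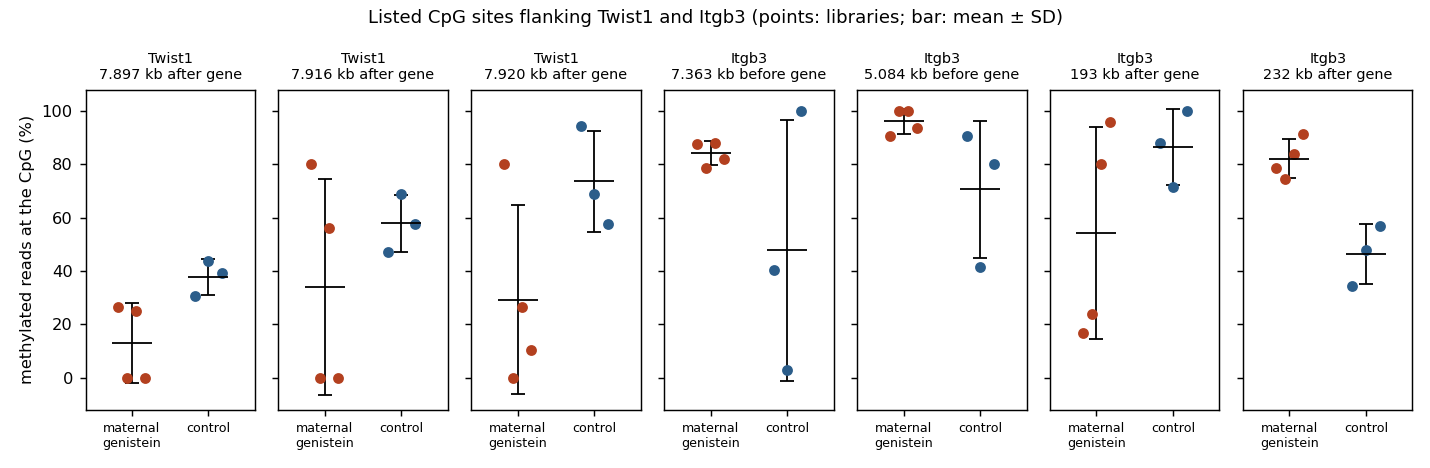
Methylation level (y axis, percent of reads) at the 7 listed CpG sites flanking Twist1 and Itgb3, with each library as a point, maternal genistein left and control right, and the mean ± SD as bars. Groups are apart at the Twist1 site 7.90 kb after the gene and at the Itgb3 site 232 kb after it, and overlap at the other 5.

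Itgb3 had 4 listed sites, 2 before its lower and 2 after its upper coordinate. Both sites before it and the farther site after it were higher in maternal genistein tumours, and the nearer site after it was lower. On chromosome 11 the site at 104602916 is 5.08 kb and the site at 104600637 is 7.36 kb before the gene, between Myl4 and Itgb3. The nearer one was at 90.5%, 100%, 100% and 93.8% in maternal genistein replicates 1 to 4, against 90.5%, 41.7% and 80% in control replicates 1 to 3. The farther one was at 87.5%, 78.8%, 88.1% and 82.1% in maternal genistein replicates 1 to 4, against 40.3%, 3.03% and 100% in control replicates 1 to 3. At both, the maternal genistein tumours lay within 10 points of each other (ranges of 9.52 and 9.31 points), while the control tumours spanned 48.8 and 97.0 points and overlapped them. Control replicate 2 weighed most: without it the differences of 25.3 and 36.3 points were 10.8 and 14.0 points, and the farther one was 62.5 points without control replicate 3. Coverage was 10 to 28 reads at the nearer and 24 to 62 reads at the farther site.

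The other sites, 193 and 232 kb after Itgb3, lie between it and Efcab3, and the farther one is nearer to Efcab3. Site 104902843, the farther of them, was the best covered of the 7, with 94 to 285 reads. It was at 78.8%, 74.3%, 83.8% and 91.5% in maternal genistein replicates 1 to 4, against 34.6%, 47.7% and 56.9% in control replicates 1 to 3. The groups did not overlap, with 82.1% ± 7.37 (SD, n = 4) in maternal genistein and 46.4% ± 11.2 (SD, n = 3) in control tumours, a difference of 35.7 points. Even the nearest libraries, at 74.3% (exact 95% interval 67.4 to 80.5) and 56.9% (50.1 to 63.6), were apart beyond counting error. Site 104863041 showed no such separation. It was at 16.7%, 24.0%, 80% and 96.0% in maternal genistein replicates 1 to 4, against 87.9%, 71.4% and 100% in control replicates 1 to 3, at 12 to 33 reads. Its difference of -32.3 points was -19.8 without maternal genistein replicate 1. Of 80 listed sites within 10 Mb of Itgb3, 57 were higher in maternal genistein tumours and 23 lower, where 53.1% of all listed sites were higher. The same window held 13 higher and 15 lower sites at Vim, 10 and 13 at Twist1, and 14 and 12 at Snai2.

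Of the 7 flanking sites 3 were thus higher and 4 lower in maternal genistein tumours, and 2 had groups that did not overlap. With the Twist1 CpGs counted as 1 by their mean, which overlapped between the groups, 3 of 5 were higher and 2 lower, and 1 did not overlap. Among all listed sites 27.8% did not overlap, 53.1% were higher and 46.9% lower. The sites were listed for a difference in this same comparison, so neither share is support. In the authors' pairs of genes with nearby sites, the 3 Twist1 pairs had RNA and methylation both lower. The 2 Itgb3 pairs had RNA lower and methylation higher. Of all 589 pairs 326 (55.3%) had opposite signs. With the RNA fold change read the other way, 263 pairs (44.7%) would have opposite signs, among them the 3 Twist1 pairs but not the 2 Itgb3 pairs.

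No listed site was annotated to Vim or Snai2. The nearest to Vim was 497 kb before it, in an exon of Rsu1 (chromosome 2, 13077600), at 66.7%, 100%, 100% and 100% in maternal genistein replicates 1 to 4, against 72.0%, 23.3% and 86.2% in control replicates 1 to 3. The nearest to Snai2 was 1148 kb before it, in an intron of Parn (chromosome 16, 13557775), at 100%, 92.9%, 81.2% and 100% in maternal genistein replicates 1 to 4, against 50%, 91.7% and 61.9% in control replicates 1 to 3. Groups overlapped at both. CpGs that the authors did not list were not analysed here.

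Called genes near Vim and Snai2 mostly shared the sign of the member. Within 10 Mb of Vim on chromosome 2, 10 of 11 called genes were lower, and within 20 Mb 29 of 31. They include St8sia6, a sialyltransferase gene 68.2 kb from Vim, at -2.04 (SE 0.41), and Itga8 at -3.19 (SE 0.61), the nearest called gene on the other side, 1272 kb away, in the authors' deposited table. Within 10 Mb of Snai2 on chromosome 16, 11 of 14 called genes were higher, and within 5 Mb all 7. The nearest of these on each side were Ypel1 at 0.99 (SE 0.34) and Dexi at 0.88 (SE 0.27) in the authors' deposited table, 2361 and 4163 kb away, with folds smaller than that of Snai2. Their edgeR false discovery rates were 0.126 and 0.0974.

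Neighbours of Twist1 and Itgb3 were mixed. Of 5 called genes within 10 Mb of Twist1 3 were lower, and the nearest on each side had opposite signs. Tspan13, a tetraspanin gene 2055 kb away, was at -2.04 (SE 0.45) in the authors' deposited table. Sox11, which encodes a neural and embryonic factor and lies 6615 kb away, was at 3.5 (SE 0.53) in the authors' deposited table. Around Itgb3, 10 of 14 were lower within 10 Mb and 18 of 35 within 20 Mb. The nearest were the connexin gene Gjc1, 1788 kb away, and Pitpnc1, a phospholipid transfer protein gene 2537 kb away. In the authors' deposited table Gjc1 was at 1.11 (SE 0.37, edgeR false discovery rate 0.0702) and Pitpnc1 at -1.39 (SE 0.26). Over whole chromosomes the called genes were 21 higher and 88 lower on chromosome 2, 45 higher and 10 lower on chromosome 16, 16 and 16 on chromosome 12, and 42 higher and 31 lower on chromosome 11. Itgb3 thus had the sign of the minority on its chromosome, and chromosome 12 of Twist1 had no majority. Of the 26 other called list genes 17 (65.4%) had the sign of their chromosome's majority, against 70.7% of 1269 called genes that could be placed.

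**Figure D3:**
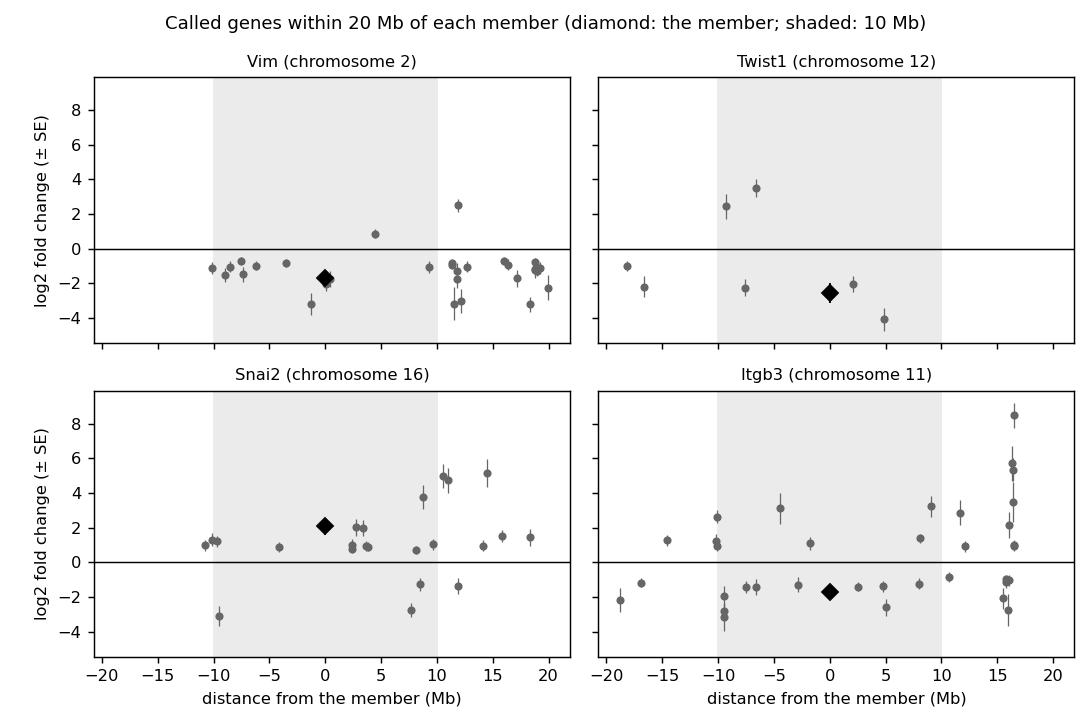
Log2 fold change (y axis, ± SE, from the authors' deposited table) of called genes within 20 Mb of each member, by distance from it in Mb (x axis). The diamond is the member and the shading marks 10 Mb. Nearly all neighbours of Vim are below 0 (29 of 31), most neighbours of Snai2 are above it (19 of 23), and those of Twist1 and Itgb3 fall on both sides.

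Differences in DNA read coverage around the genes did not pass adjustment, which no single window or chromosome could have passed alone. With 4 and 3 libraries the smallest possible exact permutation p is 0.0286, so the result does not show equal coverage. Relative coverage here is the log2 read number at a listed CpG, centred on that site's mean and then on the library's median over autosomes. Over the 28 sites within 10 Mb of Vim it was -0.09, -0.23, -0.54 and 0.02 in maternal genistein replicates 1 to 4, against 0.25, 0.35 and 0.07 in control replicates 1 to 3. All maternal genistein libraries were below all controls there, with a difference of -0.43 on the log2 scale (two-sided exact permutation p = 0.0571, adjusted p = 0.171 over the 4 windows). Over the 26 sites within 10 Mb of Snai2 it was 0.29, 0.41, -0.23 and 0.10 in maternal genistein replicates 1 to 4, against -0.54, -0.28 and -0.11 in control replicates 1 to 3. The difference was 0.45 (exact permutation p = 0.0857, adjusted p = 0.171), and replicate 3 of the maternal genistein group fell among the controls.

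At Twist1 and Itgb3 the differences were -0.21 and 0.03 with groups that overlapped (exact permutation p = 0.629 for Twist1, and larger for Itgb3). Over whole chromosomes the differences were -0.25 for chromosome 2, 0.17 for 16, -0.05 for 12 and -0.04 for 11. No chromosome passed Benjamini-Hochberg adjustment over the 20 tested (adjusted exact permutation p = 0.317, 0.317, 0.872 and 0.762), and 0 of 20 had an unadjusted p under 0.05, where the smallest possible with 4 and 3 libraries is 0.0286. The 10 Mb window was chosen for coverage after the values were seen. Since coverage also served to set the sign of the RNA values, the shared sign of coverage and RNA at Vim and Snai2 is not independent of that reading. The part of DNA coverage in their RNA difference was not tested, and the labels do not tie RNA and RRBS libraries of the same number to the same tumour.

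**Figure D4:**
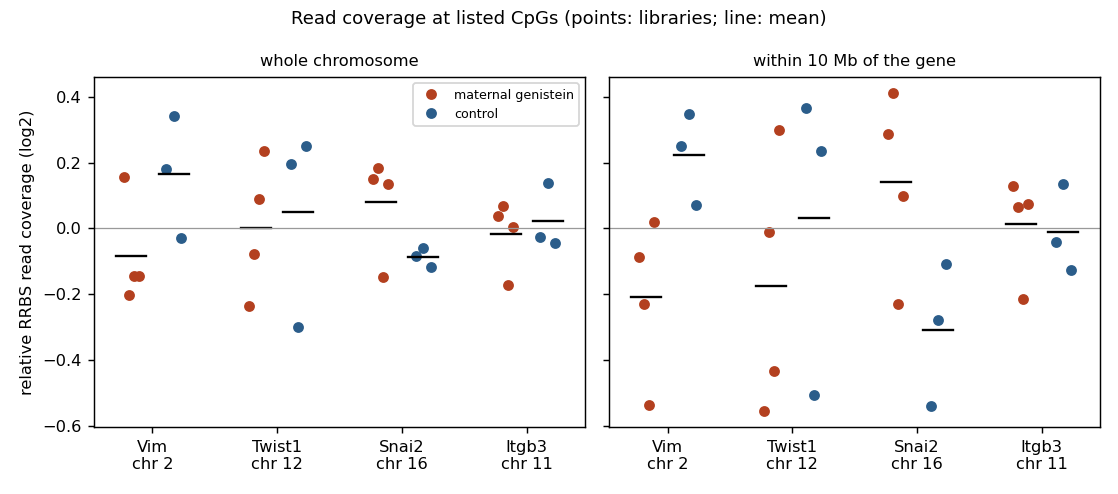
Relative RRBS read coverage (y axis, log2) at listed CpGs of the whole chromosome (left panel) and within 10 Mb of each gene (right panel), each point a library, maternal genistein left of control, lines the means. Within 10 Mb of Vim the maternal genistein libraries lie between -0.54 and 0.02 and the controls between 0.07 and 0.35.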

How the data were processed

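RNA-seq and RRBS each had 4 maternal genistein and 3 control tumour samples, and the labels do not say whether both assays used the same tumours. Per the submitters' processing notes, the tools were Bismark, Trim Galore, STAR, HTSeq, FastQC, DESeq and R 3.6.1, on GRCm38 and mm10, with no step named for any. Per the file headers, the deposited RNA table holds normalised counts averaged over libraries (a signal), log2 fold changes with SE from DESeq and edgeR, and p-values with their adjusted values. Its 1333 lines hold 1324 genes, all with a DESeq adjusted p under 0.05 and all matched to a symbol, and repeated lines were used once. The adjusted p-values imply 18425 genes tested and 1521 under the threshold; those not listed were not analysed here.

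At listed CpGs the authors deposited read counts, methylated and total, with percent methylation for each library. Group levels in the deposited region table are fractions, and deposited differences are scores in points. Levels were recomputed from counts, with means, SD and exact (Clopper-Pearson, 95%) intervals; a count of 0 allows 3 counts of the total. Libraries of one group differed by 23.4 to 29.2 points on average per site. Distances to RefSeq genes on GRCm38.p6 equalled those in the authors' annotation at 5 of 7 sites and differed by 5 bases at the other two. Coverage was compared by an exact permutation test. The relative coverage measure recovered shifts made in simulated counts. Those counts held counting error only, so they do not check the test at the spread between these libraries. Python 3.11.15, numpy 2.4.6, pandas 2.3.3 and scipy 1.17.1 were used. Members, gene lists and tests were chosen with earlier results of these data known. Named genes are the members, every called list gene, markers named as examples and the nearest called gene on each side of a member.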

Additional observations from a re-analysis of the deposited data

Results flagged for a closer look

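In groups of 4 maternal genistein libraries, 3 of 17 sets of values had 1 library far from the rest by Dixon's test. Chance does this in about 1 of 20 independent groups of normal values. These sets share reads and sites, so that rate is no yardstick for their number. At the CpG nearest to Vim, in Rsu1, replicate 1 was at 66.7% while the others were at 100%, a tie at the ceiling that fixes the test's outcome. For the relative coverage of chromosome 2, which holds Vim, replicate 1 was at 0.16 on the log2 scale, above the other 3 libraries at -0.20 to -0.14. For chromosome 16, which holds Snai2, replicate 3 was at -0.15, below the others at 0.14 to 0.18. The chromosome 2 and 16 libraries that stand apart each lie towards the controls.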

How the results depend on the processing

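The fold changes of Vim, Twist1, Snai2 and Itgb3 kept their sign and call with edgeR and at a DESeq adjusted p under 0.01. At that stricter threshold the 6 EMT lists had 7 higher and 9 lower called genes instead of 15 and 15, since fewer genes pass. Leaving out each library in turn kept the direction of all 7 site differences: they lay between 29.8 and 41.0 points at Itgb3 site 104902843, 14.0 and 62.5 at 104600637, 10.8 and 35.2 at 104602916, -46.2 and -19.8 at 104863041, and at the Twist1 sites between -29.6 and -20.7, -39.1 and -12.4, and -61.2 and -33.9. Pooled reads moved none by more than the spread between libraries. Chromosome 2 coverage ranged from -0.35 to -0.16 without each library, and that of chromosome 16 from 0.13 to 0.24. It changed sign for chromosome 12 (-0.22 to 0.0536, the highest without control replicate 3) and for chromosome 11 (-0.0722 to 0.0190, the highest without control replicate 2, and 0.0251 with the sites within 10 Mb of Itgb3); the cause was not tested. Within 5 Mb, 100% of called neighbours of Twist1 (only 2 of 2) and of Snai2 (7 of 7) had the member's direction. Within 10 Mb it was 60% (3 of 5) and 78.6% (11 of 14). No pairing by replicate number was seen (correlations of deviations 0.02, 0.01 and -0.03), which cannot exclude a shared batch or litter. With the replicate number as a block the site differences were 37.0 points at 104600637 and -46.2 points at 104863041. This block leaves out maternal genistein replicate 4, which has no control of the same number. Its differences equal those without that replicate, so the unchanged directions at all sites and chromosomes are no separate check. For RNA no paired analysis was possible because values per library were not analysed here. Sites with 20 or more reads in every library were 2 of the 7, and depth limits the rest: at 10 to 36 reads a single library's level is loose.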
